A study of Mus musculus with 7 samples.

Results

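The genes described here are the adenosine receptors and the proteins that form, remove and carry adenosine. There are 7 of them, chosen by symbol: the receptor genes Adora1, Adora2a and Adora2b, the enzyme genes Adk and Nt5e, and the transporter genes Slc29a1 and Slc29a2. They were read from the 23413 gene symbols counted in the cortex of APP/PS1 mice, and all 7 passed the filter on low counts that left 15881 genes for testing. The mice were on a control diet (CD, called SD in the sample labels, n = 4) or a ketogenic diet (KD, n = 3). Every mouse carried both transgenes of the line, which encode a mutant human amyloid precursor protein and a mutant human presenilin, so each result below compares diets within this Alzheimer's disease model, and no wild-type cortex was analysed here. The diets began at 6 months of age and lasted 7 months, and tissue was taken at 13 months. By energy, CD held 74% carbohydrate, 10% protein and 16% fat, and KD held less than 0.5% carbohydrate, 10% protein and 90% fat. From the start of the diets the mice were housed singly. The labels give no sex for any library.

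Adenosine is a breakdown product of ATP that quiets neurons and widens blood vessels. Outside the cell it is made mainly when ectonucleotidases strip phosphates from released ATP. It acts on receptors that lower cyclic AMP (A1, the product of Adora1) or raise it (the products of Adora2a and Adora2b), and it is drawn back through equilibrative transporters into cells, where adenosine kinase turns it into AMP. In brain, A1 receptors are abundant on cortical and hippocampal neurons, Adora2a receptors are concentrated on the striatal neurons that also make enkephalin, and adenosine kinase of the adult brain resides mostly in astrocytes. A rise of adenosine acting through A1 receptors has been proposed as one way in which ketogenic diets damp seizures.

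None of the 7 genes differed between diets beyond the spread of the libraries. In each of them the KD and CD values overlapped. The libraries of the diets did not overlap for only 4.2% of all tested genes, so overlap in all 7 does not set these genes apart. At the study's threshold, a raw p of at most 0.01, 0 of 7 passed (0.321% of all tested genes did), and 0 of 7 passed at a raw p under 0.05 (3.19% of all tested genes). Fitted log2 fold changes, KD over CD, were positive for 2 genes and negative for 5, with a median of -0.069, beside a median of -0.0033 over all tested genes. The fold change and its interval are given for each gene below, because a p that misses the threshold does not show that the diets had equal levels.

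The libraries held 29905345 to 36614954 counts in the CD group and 22272883 to 34028808 in the KD group, so low counts are less precise in KD replicates 1 and 3, the libraries with the lowest totals. No gene of the whole table passed an adjusted p under 0.05 by the quasi-likelihood test of edgeR, where 506 had a raw p under 0.05 and 51 a raw p of at most 0.01. CD replicate 4 and KD replicate 3 stood apart from the other libraries in several marker lists. In CD replicate 4, all 10 meningeal fibroblast markers and all 10 endothelial markers had their highest value, and in KD replicate 3, 8 of 12 striatal neuron markers did. The 10 markers of cortical excitatory neurons were all detected, and each had its lowest value in one of the same libraries, 5 in CD replicate 4 and 5 in KD replicate 3. Other libraries stood apart in other lists. CD replicate 1 held the highest value of 6 of 8 choroid plexus markers. Of the 8 oligodendrocyte markers, 4 were lowest in CD replicate 3 and 4 in KD replicate 3. CPM is the count over the library's total, times 1000000. Xist, the RNA that silences an X chromosome in females, was at 242 CPM or more in replicates 1 and 2 of both diets. It was at 3.08 CPM or less in the other libraries. Ddx3y, a gene of the Y chromosome, was at 301 and 346 CPM in CD replicates 3 and 4 and at 334 CPM in KD replicate 3. It was at 0.301 CPM or less in the rest. By both genes CD replicates 3 and 4 and KD replicate 3 were male and the rest female. The sexes thus fall 2 and 2 in CD, but 2 female and 1 male in KD. CD replicate 4 and KD replicate 3 were thus both male, as was CD replicate 3, and CD replicate 1 was female. In bulk RNA of this kind, fewer cells of a type and less RNA per cell cannot be told apart.

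Each symbol pools all transcripts of its gene. RefSeq lists promoter windows for 6 of the 7 genes, 15 windows in all, since several genes have more than one start, and Adora2a has none in the table. Below are the windows of the 2 most abundant genes, Adora1 and Adk, that are clear of annotated exons. Each gives the 250 bases before a start, 5′ to 3′ on the gene's own strand (GRCm38.p6), with capitals marking every match to the GC box GGGCGG on either strand, where matches can abut. The Adora1 window lies at chr1:134235458-134235707 on the minus strand and the Adk window at chr14:21075902-21076151 on the plus strand, inside the first part of the long Adk gene and ahead of an internal start. The long and the short form of adenosine kinase come from different starts of Adk, and the counts cannot tell them apart.
Adora1: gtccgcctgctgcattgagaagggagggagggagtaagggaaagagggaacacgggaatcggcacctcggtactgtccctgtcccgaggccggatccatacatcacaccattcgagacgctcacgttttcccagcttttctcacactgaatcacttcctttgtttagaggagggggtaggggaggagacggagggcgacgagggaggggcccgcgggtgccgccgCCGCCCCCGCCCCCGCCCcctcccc
Adk: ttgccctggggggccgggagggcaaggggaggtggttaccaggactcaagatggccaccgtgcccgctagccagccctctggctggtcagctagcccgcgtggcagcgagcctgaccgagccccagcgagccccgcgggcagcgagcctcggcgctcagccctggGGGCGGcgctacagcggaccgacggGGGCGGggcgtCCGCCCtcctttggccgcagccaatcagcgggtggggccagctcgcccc

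Each of these windows held 3 GC boxes, and their GC contents were 64.4% for Adora1 and 75.2% for Adk. Over all windows of the 6 genes, 9 of 15 held at least 1 GC box, belonging to 5 of the genes, and GC boxes occurred in 32.7% of the 32851 windows of this length in the whole table. The cAMP response element TGACGTCA (1.55% of all windows, on either strand) and the TATA box TATAAA (12.4%) were in none of the 15. A match describes letters only and is not evidence of binding.

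Per kilobase of exon, Adora1 was the highest of the 7 genes at 24.1 CPM per kb (SD 5.21, n = 7 libraries). Adk followed at 9.86 ± 0.879, Slc29a1 at 3.72 ± 0.450, Adora2b at 2.09 ± 0.413, Slc29a2 at 2.03 ± 0.359, Nt5e at 0.973 ± 0.458 and Adora2a at 0.952 ± 0.569 CPM per kb. The first 3 places were the same in every library, and the ranges of these genes touched neither each other nor that of any gene below. Adora2b and Slc29a2 changed places between libraries (Adora2b was higher in 4 of 7), and so did Nt5e and Adora2a (Nt5e was higher in 4 of 7), so neither pair can be ordered. Slc29a2 was above Nt5e in all 7 libraries, although their ranges overlapped.

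**Figure D1:**
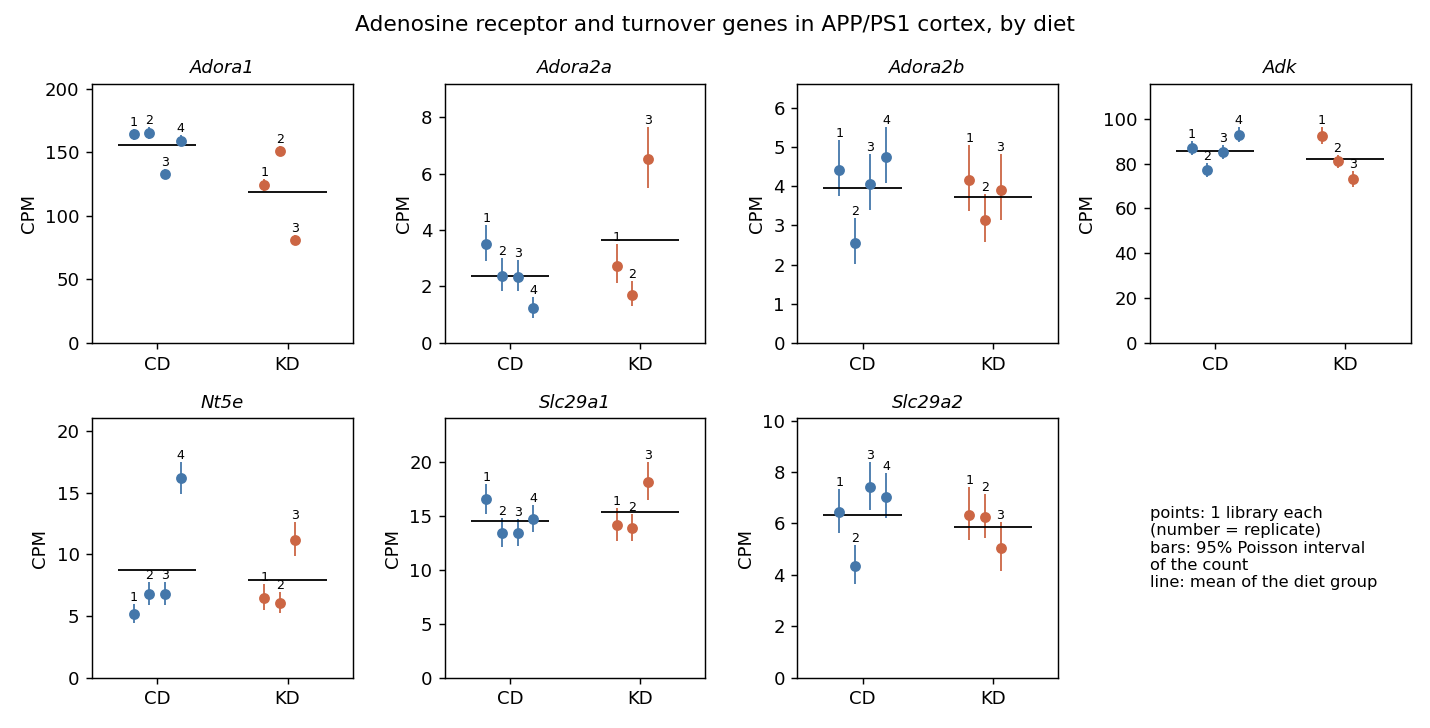
Level of each of the 7 adenosine genes in every cortex library, as CPM on a linear axis that starts at 0, with CD libraries in blue and KD libraries in orange, replicate numbers above the points, bars for the 95% Poisson interval of the count (counting error only) and a line at each group mean. KD replicate 3 holds the lowest Adora1 (81.4 CPM) and the highest Adora2a (6.51 CPM), CD replicate 4 holds the highest Nt5e (16.2 CPM), and the diets overlap in all 7 genes.

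Adora1 encodes the A1 receptor, which lowers cyclic AMP and holds back transmitter release. The gene spans chr1:134199223-134235431 on the minus strand (mm10, GENCODE M21), and its 3′ end overlaps Mybph on the other strand, a gene with 10 to 41 counts per library. Adora1 measured 164, 165, 133 and 159 CPM in CD replicates 1 to 4 and 124, 151 and 81.4 CPM in KD replicates 1 to 3. The lowest 2 values were both KD, and KD replicate 2 lay inside the CD range. The CD mean was 155 ± 15.2 (SD, n = 4) and the KD mean 119 ± 35.04 (n = 3), a log2 fold change of -0.37 with an SE of 0.20 and a 95% interval of -0.83 to 0.084, that is from 0.563 to 1.06 of the CD level. The raw p was 0.0974 (edgeR quasi-likelihood, adjusted p = 0.979), and the exact two-sided permutation test gave p = 0.171, where 0.0571 is the smallest p that 3 libraries against 4 allow. Without KD replicate 3 the log2 fold change was -0.16.

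Adora1 was the only one of the 7 genes that passed the raw threshold in any alternative fit. In a fit that held Xist (on the log2 CPM scale) as covariate, its log2 fold change was -0.45 with a raw p of 0.00579 (adjusted p = 0.730), and 1.33% of all tested genes were called. Among the Xist-high libraries, female by Xist and Ddx3y, the CD values were 164 and 165 CPM and the KD values 124 and 151 CPM. Among the Xist-low libraries, male by the same genes, the CD values were 133 and 159 CPM and the single KD value 81.4 CPM. KD was thus below CD within both sets, and no test was run within sets of this size. KD replicate 3, the lowest in Adora1, also had the lowest mean level of the cortical excitatory neuron markers, 5.91 on the log2 CPM scale, beside 6.27 in CD replicate 4 and 6.72 to 6.85 in the other libraries. Across the 7 libraries Adora1 and that marker mean had a Pearson r of 0.75 (Spearman's rho 0.64), and r was -0.046 without KD replicate 3 and 0.91 without CD replicate 4. This list was not alone. For Adora1, r was -0.79 with the striatal neuron markers, 0.68 with the oligodendrocyte markers and 0.64 with the astrocyte markers. Without KD replicate 3 these values were 0.039, 0.39 and 0.20. The part of these lists in the Adora1 values was not tested.

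Adora2a encodes a receptor that raises cyclic AMP and is known for its density on striatal neurons of the indirect pathway. It spans chr10:75316877-75334784 on the plus strand. Adora2a was at 3.51, 2.37, 2.35 and 1.23 CPM in CD and at 2.74, 1.70 and 6.51 CPM in KD. KD replicate 3 was highest and CD replicate 4 lowest, a span of 5.30-fold that was the widest among the 7 genes. The counts behind these values were 45 to 145 per library. The CD mean was 2.36 ± 0.929 and the KD mean 3.65 ± 2.53, and the log2 fold change was 0.61 (SE 0.49, 95% interval -0.51 to 1.73, raw p = 0.247, edgeR adjusted p = 0.979, exact permutation p = 0.457). Without KD replicate 3 it was -0.082, the opposite sign.

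Striatal neuron markers moved with Adora2a from library to library. Their mean log2 CPM, over the 11 markers that passed the filter, was 3.77, 3.71, 3.67 and 3.41 in CD replicates 1 to 4 and 3.65, 3.45 and 4.27 in KD replicates 1 to 3. None of the 12 markers was at 0 in any library. Adora2a and this mean had a Pearson r of 0.96 over the 7 libraries (rho 0.89), and r was 0.94 without KD replicate 3 and 0.97 without CD replicate 4. These points share their libraries and depth, and r is given as a description. Penk, the enkephalin precursor made by the neurons that carry Adora2a receptors, was at 125 CPM in KD replicate 3 and at 11.9 to 48.6 CPM elsewhere, whereas Drd2, the dopamine receptor of the same neurons, stayed between 0.676 and 1.98 CPM with its highest value also in KD replicate 3. Gpr6, a receptor of these neurons too, went another way, with its highest value in CD replicate 4 (2.02 CPM) and 1.08 CPM in KD replicate 3, and Syndig1l was also highest in CD replicate 4, at 3.52 CPM. Summed over all 12, the markers reached 246 to 319 CPM in CD and 280 to 466 CPM in KD. Of the 11 that were tested, 8 had a positive and 3 a negative log2 fold change. The raw threshold was passed by 1 of the 11, beside 0.321% of all tested genes. It was Rarb, at 11.7 ± 0.825 CPM in CD and 16.1 ± 2.20 CPM in KD (log2 fold change 0.46, edgeR adjusted p = 0.979). Rarb encodes a retinoic acid receptor of striatal neurons. Taken over the mean of the list within each library, Adora2a had a log2 ratio of -2.45 ± 0.48 in CD and -2.11 ± 0.51 in KD, a difference of 0.34 (exact permutation p = 0.4, adjusted over 4 ratios 0.686), and of 0.073 without KD replicate 3. How much striatal tissue each piece of cortex held was not measured, and its part in the Adora2a values was not tested.

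**Figure D2:**
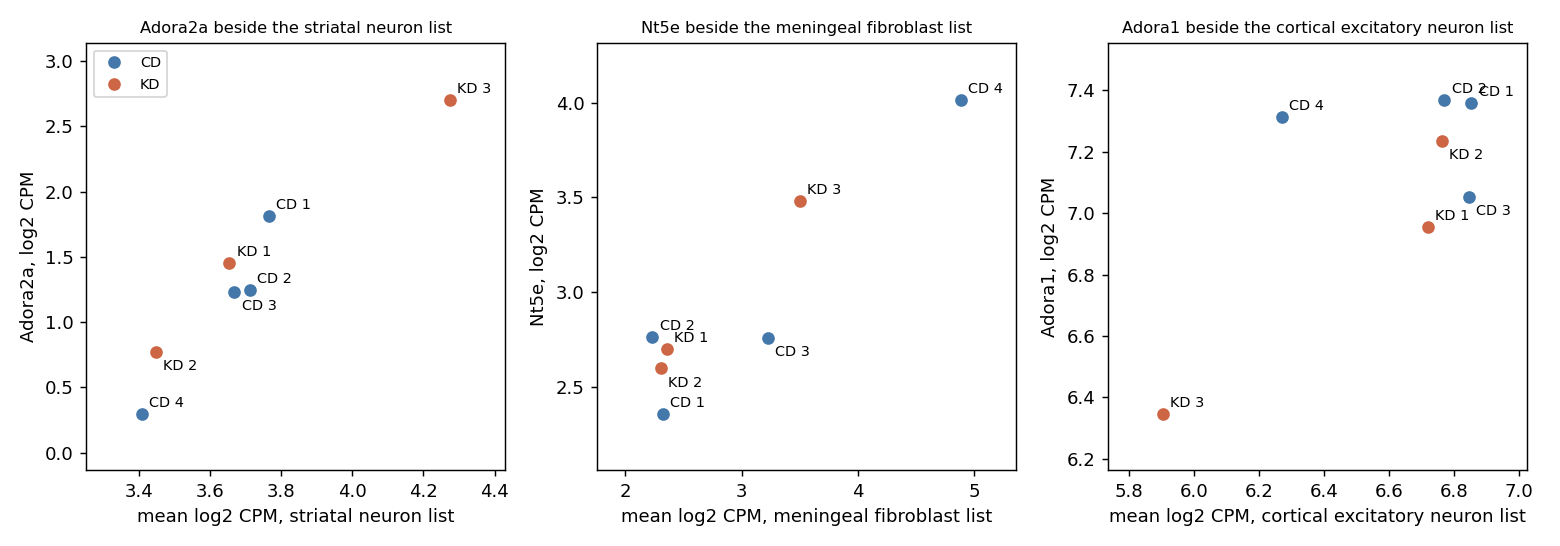
Log2 CPM of Adora2a, Nt5e and Adora1 (vertical axes) against the mean log2 CPM of the tested striatal neuron, meningeal fibroblast and cortical excitatory neuron markers (horizontal axes), 1 point per library with its diet and replicate number. Adora2a is highest in KD replicate 3 and lowest in CD replicate 4 along with its list, Nt5e is highest in CD replicate 4 along with its list, and for Adora1 KD replicate 3 lies apart at the lower left.

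Adora2b encodes the low-affinity adenosine receptor, found on vessels and glia. It spans chr11:62248984-62266453 on the plus strand. Its levels were 4.42, 2.54, 4.06 and 4.75 CPM in CD and 4.15, 3.14 and 3.91 CPM in KD. All 3 KD values lay within the CD range, whose lowest and highest values were CD replicates 2 and 4. The means were 3.94 ± 0.976 and 3.73 ± 0.524 CPM, and the log2 fold change was -0.069 (SE 0.24, 95% interval -0.62 to 0.48, raw p = 0.783 by edgeR, exact permutation p = 0.914). The interval leaves room for a KD level between 0.650 and 1.40 times that of CD.

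Adora1 made up most of the receptor signal per length in every library. Of the summed CPM per kb of the adenosine receptor genes (Adora1, Adora2a, Adora2b and Adora3), it held 75.4% in KD replicate 3, the lowest share, and 91.6% in CD replicate 2, the highest. The Adora2a share was 1.30% in CD replicate 4 and 11.4% in KD replicate 3, and lay between 1.93% and 3.56% in the other 5 libraries. As a log2 ratio within a library, Adora1 over Adora2a was 5.52, 6.08, 5.78 and 6.94 in CD and 5.47, 6.41 and 3.63 in KD. The mean difference, KD minus CD, was -0.91 (exact permutation p = 0.4, adjusted over 4 ratios 0.686), and it shrank to -0.14 without KD replicate 3.

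Nt5e encodes CD73, the surface enzyme that makes adenosine from AMP. It spans chr9:88327197-88372092 on the plus strand. Nt5e was at 5.13, 6.79, 6.77 and 16.2 CPM in CD and at 6.50, 6.05 and 11.2 CPM in KD. CD replicate 4 was highest and KD replicate 3 next, and the other 5 libraries lay between 5.13 and 6.79 CPM with the diets mixed. The means were 8.71 ± 5.03 CPM in CD and 7.91 ± 2.84 CPM in KD, and the log2 fold change was -0.13 (SE 0.39, 95% interval -1.03 to 0.78, raw p = 0.756 by edgeR, exact permutation p = 0.857). It turned to 0.33 without CD replicate 4 and fell to -0.44 without KD replicate 3, and it was 0.021 with both left out, a choice made after seeing the data.

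The same libraries were high in markers of meningeal fibroblasts, the collagen-making cells of the brain's coverings. Summed over the 10 markers, the level was 64.5, 70.1, 118 and 401.5 CPM in CD replicates 1 to 4 and 67.7, 58.2 and 179 CPM in KD replicates 1 to 3, and no marker was at 0 in any library. Nt5e and the mean log2 CPM of the list had a Pearson r of 0.92 and a rho of 0.61 over the 7 libraries, and r was 0.76 without CD replicate 4. None of the 10 markers passed a raw p of 0.01 in either direction, beside 0.321% of all tested genes, so this does not set the list apart. Their median log2 fold change was -0.77. Nt5e also ran opposite to the cortical excitatory neuron markers, with a Pearson r of -0.82 (rho -0.68), and to the microglia markers, with a Pearson r of -0.84 (rho -0.79). The part of these lists in the Nt5e values was not tested.

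Adk encodes adenosine kinase, the enzyme that sets how fast adenosine is cleared inside cells. It spans chr14:21052574-21448569 on the plus strand and overlaps an uncounted small RNA gene, Gm26372, on its own strand. Adk was at 86.9, 77.1, 85.0 and 92.9 CPM in CD and at 92.4, 80.9 and 73.0 CPM in KD. The lowest value was KD replicate 3 and the highest CD replicate 4, with the diets interleaved between them. Adk was the steadiest of the 7 genes, with a coefficient of variation of 8.92% over the 7 libraries, where counting alone would give 1.97%. The CD mean was 85.5 ± 6.52 and the KD mean 82.1 ± 9.74 CPM, and the log2 fold change was -0.046 (SE 0.10, 95% interval -0.28 to 0.18, raw p = 0.663 by edgeR, exact permutation p = 0.629). This is the narrowest interval of the 7, from 0.826 to 1.14 of the CD level.

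The mean log2 CPM of the astrocyte markers lay between 7.81 and 8.09 in CD and between 7.76 and 8.06 in KD, and its Pearson r with Adk was 0.78 (rho 0.79, 7 libraries), or 0.58 without KD replicate 3. The endothelial markers followed Adk as closely (r = 0.80, rho 0.86, and 0.64 for r without KD replicate 3). The log2 ratio of Nt5e over Adk, the enzyme that forms extracellular adenosine over the one that removes it, was -4.07, -3.49, -3.64 and -2.52 in CD and -3.82, -3.73 and -2.70 in KD. CD replicate 4 and KD replicate 3 again held the highest values. The mean difference of 0.015 was far smaller than the SD within either diet, 0.65 in CD and 0.62 in KD (exact permutation p = 0.971).

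**Figure D3:**
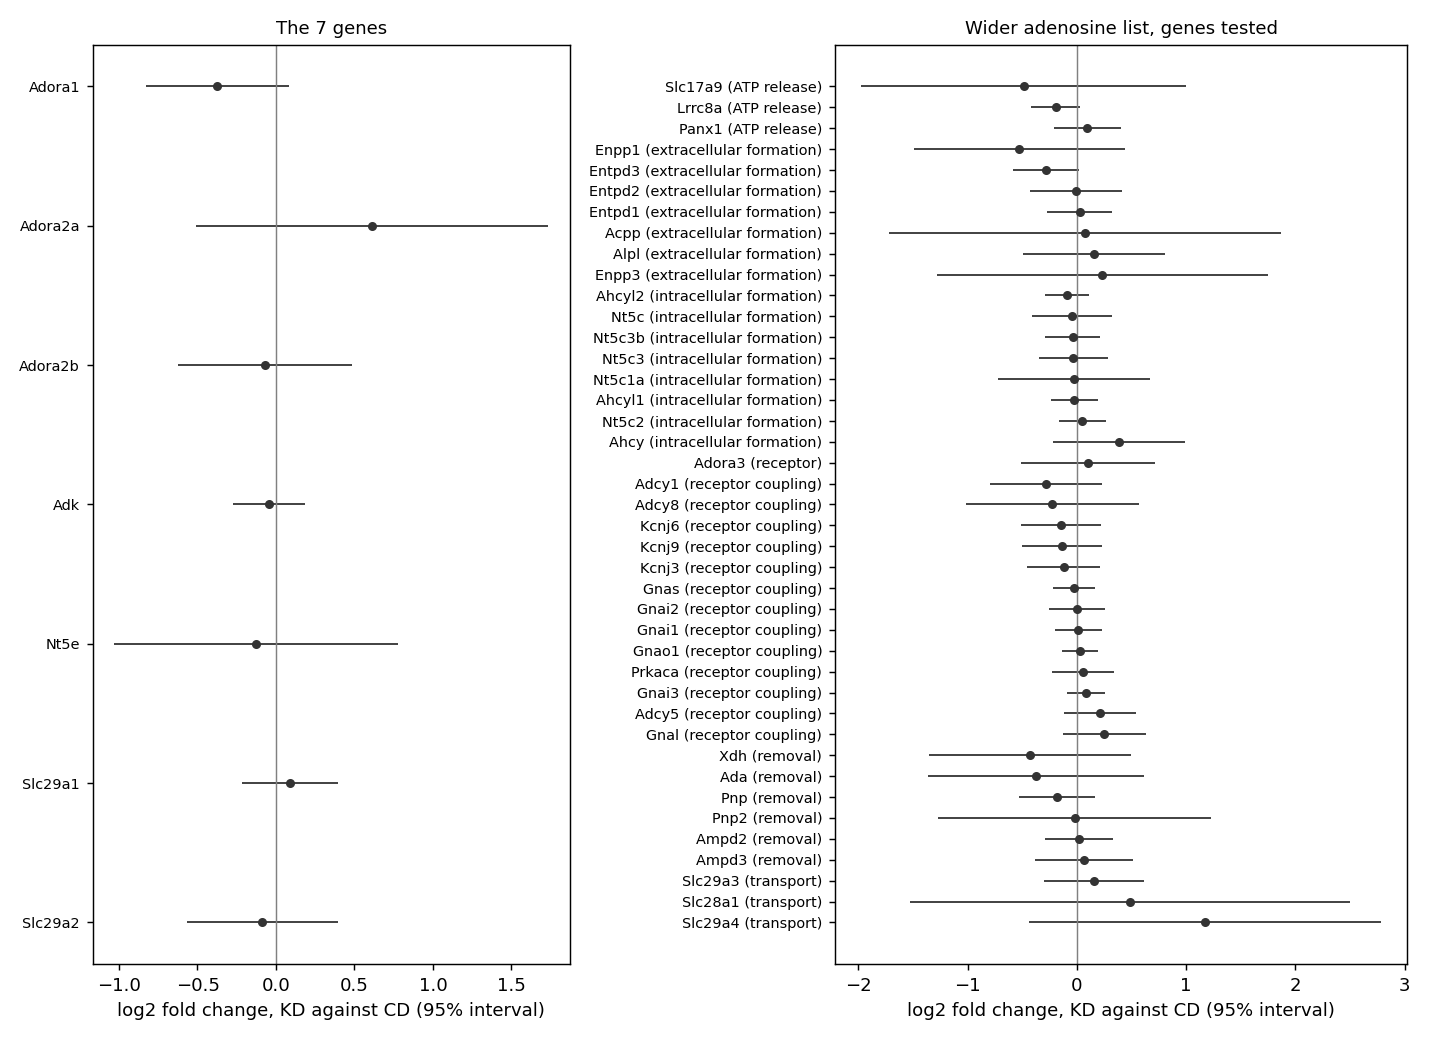
Log2 fold change, KD against CD, with its 95% interval from the edgeR quasi-likelihood fit, for the 7 adenosine genes (left) and for the 41 tested genes of the wider adenosine list with their roles (right), around a line at 0. Every interval crosses 0, and among the 7 genes Adk has the narrowest (-0.28 to 0.18) and Adora2a the widest (-0.51 to 1.73).

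Slc29a1 and Slc29a2 encode the equilibrative nucleoside transporters ENT1 and ENT2, which let adenosine cross the plasma membrane in either direction. Slc29a1 spans chr17:45585200-45599606 on the minus strand, where the antisense gene Gm17080 overlaps it without a row of its own in the counts, and Slc29a2 spans chr19:5023860-5031972 on the plus strand. Slc29a1 was at 16.5, 13.4, 13.4 and 14.7 CPM in CD and at 14.2, 13.9 and 18.2 CPM in KD. KD replicate 3 was the highest and the other KD values lay within the CD range. The means were 14.5 ± 1.48 and 15.4 ± 2.41 CPM, a log2 fold change of 0.091 (SE 0.13, 95% interval -0.21 to 0.40, raw p = 0.513 by edgeR, exact permutation p = 0.4), which was -0.031 without KD replicate 3.

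Slc29a2 was at 6.44, 4.35, 7.41 and 7.05 CPM in CD and at 6.33, 6.26 and 5.03 CPM in KD. All KD values lay within the CD range, and CD replicate 2 was the lowest. The means were 6.31 ± 1.37 and 5.87 ± 0.732 CPM, and the log2 fold change was -0.088 (SE 0.21, 95% interval -0.57 to 0.39, raw p = 0.685 by edgeR, exact permutation p = 0.686). The log2 ratio of Slc29a1 over Slc29a2 was 1.35, 1.61, 0.85 and 1.06 in CD and 1.15, 1.14 and 1.84 in KD. KD replicate 3 had the highest ratio and CD replicate 3 the lowest, and the mean difference was 0.16 (exact permutation p = 0.514, adjusted over 4 ratios 0.686).

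**Figure D4:**
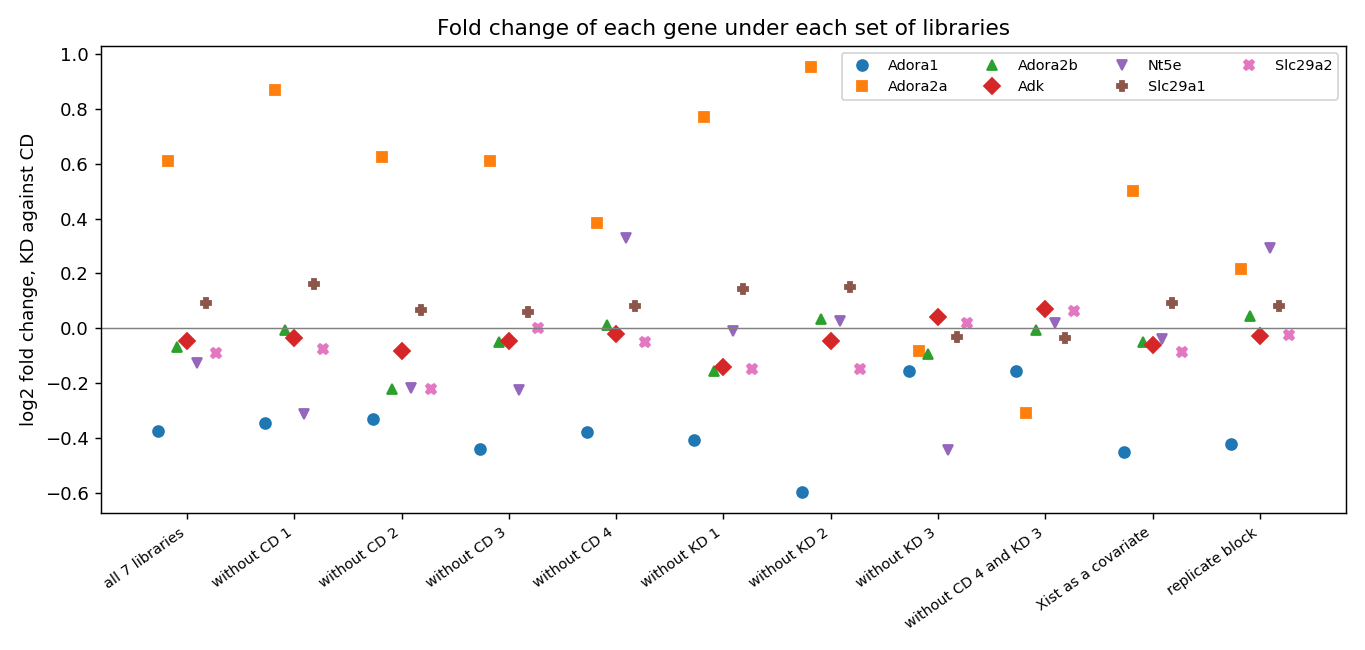
Log2 fold change, KD against CD (vertical axis), of each of the 7 adenosine genes with all 7 libraries, with each library left out in turn, without both CD replicate 4 and KD replicate 3, with Xist held as covariate, and in the replicate block fit of libraries 1 to 3. Adora1 stays negative throughout, from -0.59 to -0.16 when single libraries are left out, whereas each of the other 6 genes has values on both sides of 0.

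The remaining genes of the pathway were read from a list of 46, of which 41 were tested. Of these, 20 had a positive and 21 a negative fitted log2 fold change, with a median of -0.0082. In either direction 0 passed a raw p of 0.01 (0.321% of all tested genes did) or of 0.05 (3.19%). In none were the diets' libraries apart, beside 4.2% of all tested genes. With shares this low, 0 of 41 does not set the list apart. The other receptor gene, Adora3 (A3, expressed by microglia in mouse brain), was at 1.71 ± 0.169 CPM in CD and 1.81 ± 0.442 CPM in KD.

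Among the enzymes that form adenosine outside the cell, 7 of 8 were tested, 4 with a positive and 3 with a negative log2 fold change. Entpd1 (CD39, which starts the breakdown of ATP) was at 21.0 ± 0.702 CPM in CD and 21.3 ± 3.99 CPM in KD. Entpd3, a neuronal ectonucleotidase, was at 11.7, 11.5, 10.95 and 11.6 CPM in CD and at 8.94, 8.17 and 10.96 CPM in KD. The lowest 2 values were KD replicates 1 and 2, and KD replicate 3 was level with the lowest CD library (log2 fold change -0.28, SE 0.13, edgeR adjusted p = 0.979). Genes of ATP release (channels and the vesicular nucleotide transporter Slc17a9) gave 1 positive and 2 negative values, with Lrrc8a, a subunit of volume-regulated anion channels, at 42.5 ± 3.22 CPM in CD and 36.9 ± 2.45 CPM in KD (log2 fold change -0.19, edgeR adjusted p = 0.979), and Panx1, a pannexin channel, at 16.6 ± 1.86 and 17.6 ± 2.64 CPM.

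Inside the cell, 8 of 9 genes listed under adenosine formation were tested, 2 positive and 6 negative. Those with the highest CPM were Ahcyl1 and Ahcyl2, relatives of the enzyme that splits S-adenosylhomocysteine. Ahcyl1 was at 278 ± 14.6 CPM in CD and 271 ± 27.5 CPM in KD, and Ahcyl2 at 187 ± 20.5 and 174 ± 8.13 CPM. They are listed by that relation, and their levels do not measure adenosine formation. The enzyme itself, encoded by Ahcy, was at 6.08 ± 1.84 CPM in CD and 7.87 ± 2.29 CPM in KD (log2 fold change 0.38). Of the genes listed under removal 6 of 7 were tested, 2 positive and 4 negative. The AMP deaminase genes led them, Ampd2 at 36.3 ± 4.92 and 36.5 ± 6.54 CPM and Ampd3 at 15.0 ± 4.21 and 15.6 ± 1.38 CPM. Their enzymes act on AMP and not on adenosine itself, so their levels do not measure adenosine removal. For Ahcyl1, Ahcyl2, Ampd2 and Ampd3 the difference between the diets was smaller than the SD of the CD libraries.

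Of the other transporters 3 of 5 were tested, all with positive log2 fold changes. Slc29a3 (ENT3, of lysosomes) was at 7.57 ± 1.16 CPM in CD and 8.39 ± 1.996 CPM in KD. Slc29a4, a monoamine and adenosine transporter of the plasma membrane, was between 0.824 and 1.71 CPM in the CD libraries and at 0.641, 1.09 and 6.33 CPM in KD. Its log2 fold change of 1.17 (SE 0.70, edgeR adjusted p = 0.979) was set by KD replicate 3 and was -0.40 without it.

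All 13 genes that couple the receptors to their effects were tested, 7 positive and 6 negative. Adcy1, the calcium-stimulated adenylyl cyclase of cortical neurons, was at 1782, 1506, 1370 and 1644 CPM in CD and at 1577, 1458 and 805 CPM in KD. As with Adora1, KD replicate 3 was the lowest library, and the log2 fold change of -0.28 (edgeR adjusted p = 0.979) was -0.032 without it. Gnas, the stimulatory G protein subunit behind the Adora2a and Adora2b receptors, was at 949 ± 53.1 CPM in CD and 925 ± 49.8 CPM in KD. Kcnj9, a subunit of the potassium channels that A1 receptors open, was the only gene of the list to pass the raw threshold in any alternative fit, and is named after its values were seen. It reached -0.38 on the log2 fold scale when KD replicate 2 was left out (edgeR adjusted p = 0.969), in a fit that called 0.597% of all tested genes.

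The tested genes whose log2 CPM was most like that of each member over the 7 libraries, by Pearson r, are given as a description. Because they were picked by r out of all tested genes, high values were bound to occur, and no chance level was computed. For Adora1 they were Trim66 (r = 0.99), Tmem25 (0.99) and Fam13a (0.99), and for Adora2a they were Peg10 (0.98), Vgll3 (0.97) and Cenpe (0.97). For Adora2b they were Etfa (0.98), St5 (0.98) and Piezo1 (0.97), and for Adk they were Epb4.1l5 (0.98), Zfp760 (0.98) and Hist1h3i (0.98). Hist1h3i was low, at 0.224 to 0.813 CPM. Nt5e was followed most closely by Nr3c2 (0.99), Dcc (0.99) and Wnt5a (0.98).

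For Slc29a2 the nearest genes were Slc20a1 (r = 0.97), Crebbp (0.96) and Sp140 (0.95). For Slc29a1 they were Nomo1 (0.97), Bloc1s5 (0.96) and Gtf3c5 (0.96), and without the 2 libraries farthest from the Slc29a1 median, KD replicate 3 and CD replicate 1, these values fell to 0.18, 0.54 and 0.36. With the 2 farthest libraries left out in the same way, the nearest genes of Adora1 had r from 0.91 to 0.94, those of Adora2a from 0.87 to 0.94, those of Adk from 0.91 to 0.996, those of Nt5e from 0.86 to 0.88, those of Adora2b from 0.71 to 0.92 and those of Slc29a2 from 0.68 to 0.92. The libraries that were kept also took part in picking the genes, so these values are no independent support. Among the members themselves, Adora2a and Slc29a1 had the highest r (0.79, rho 0.68) and Adora1 and Adora2a the lowest (-0.71, rho -0.29), over the same 7 libraries.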

How the data were processed

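RNA-seq was done on frozen cortex, 1 library per mouse, from stranded total RNA. Per the methods, the authors ran STAR against mm10 with its HTSeq-type counting switched on, and what they deposited are raw, unnormalized counts, 1 per gene symbol and mouse. Versions, annotation and the strand setting of the counting are not given in the sources used here. Diet and replicate came from the labels, and sex was read from Xist and Ddx3y. CPM printed here is the count over the library's total. Exon lengths and coordinates came from GENCODE M21 and promoter windows from RefSeq (GRCm38.p6).

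KD was compared with CD with edgeR 4.0.16 in R 4.3.3: filterByExpr, TMM scaling, glmQLFit with robust=TRUE and glmQLFTest, without a covariate, as the authors name edgeR, TMM and a raw threshold of 0.01, with Benjamini-Hochberg adjustment over all tested genes. Log2 CPM used a prior count of 2. Ratios were tested by exact two-sided permutation of the diet labels over the 7 libraries. The procedure was also run on simulated counts, drawn for each gene separately from its mean and fitted spread. Those counts had no shared shifts of marker lists between libraries, so the run is no check on such shifts. Alternatives were other scalings, filters, tests (DESeq2 1.42.0, limma-voom with limma 3.58.1, likelihood ratio), Xist as a covariate, a replicate block and leaving out each library.

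The members and all lists were chosen with earlier results of these data known. Genes named are the members, in each role of the wider list those with the highest mean CPM (2 per role) or a raw p under 0.05, and for each member the 3 genes of highest Pearson r. Further markers are named where a list is described, and Ahcy is named beside its relatives. The replicates are separate mice.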

Additional observations from a re-analysis of the deposited data

Results flagged for a closer look

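In the CD group, 27 quantities (the members in CPM and in log2 CPM, log2 ratios and list means) were searched for a single library lying far outside the remaining 3, by Dixon's test at its 95% critical value, and chance would give about 1.35 such cases, counting related quantities singly. There were 3. Nt5e was at 16.2 CPM in CD replicate 4 against 5.13 to 6.79 CPM in its group, a gap of 0.85 of the range, and on the log2 CPM scale it did not pass. The oligodendrocyte list averaged 6.18 log2 CPM in CD replicate 3 against 7.99 to 8.13 in its group (0.93 of the group's range was the gap). The cortical excitatory neuron list averaged 6.27 log2 CPM in CD replicate 4 against 6.77 to 6.85 in its group, a gap of 0.857 of the range.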

How the results depend on the processing

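The raw threshold was passed by 51 of all tested genes. This became 103 by likelihood ratio, 120 in DESeq2, 212 with Xist as a covariate, 182 with the replicate block, and 19 (without CD replicate 1) to 211 (without CD replicate 3) when libraries were left out in turn. Other scalings, filters and limma-voom gave 38 to 65. Members called numbered 0 in every setting except 1, Adora1, with Xist as a covariate (leaving out libraries: 0 to 0). In the wider list the count was 0 except for 1 without KD replicate 2 (range 0 to 1). Of 126 alternative fits of single members, 1 had a raw p of at most 0.01 and 16 turned the direction, as did 9 of 40 values of ratios, none with a main value past its threshold.

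Leaving out libraries in turn gave log2 fold changes of -0.59 to -0.16 for Adora1, -0.082 to 0.95 for Adora2a, -0.22 to 0.034 for Adora2b, -0.14 to 0.042 for Adk, -0.44 to 0.33 for Nt5e, -0.031 to 0.16 for Slc29a1 and -0.22 to 0.019 for Slc29a2. For the log2 ratios the ranges were -1.53 to -0.14 (Adora1 over Adora2a), -0.34 to 0.32 (Nt5e over Adk), -0.071 to 0.29 (Slc29a1 over Slc29a2) and 0.073 to 0.58 (Adora2a over the striatal list). With both CD replicate 4 and KD replicate 3 left out, chosen after seeing the data, reversed values were -0.31 for Adora2a, 0.072 for Adk, 0.021 for Nt5e, -0.035 for Slc29a1 and 0.063 for Slc29a2, and for the ratios, in the order above, 0.15, -0.039, -0.12 and -0.14. The causes were not tested.

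The replicate numbers 1 to 3 are shared by the diets, but the labels tie them to no litter or batch, and the deviations of same-numbered libraries correlated at 0.25, 0.19 and 0.098, so the numbers were not taken as pairs. With the replicate block, which also leaves out CD replicate 4, Adora2b was 0.044 and Nt5e 0.29, both reversed, and 0 members passed. Leaving out CD replicate 4 alone turned both as well (0.013 and 0.33). With 3 and 4 libraries, permutation cannot reach a p under 0.0571, and the 45 to 145 counts of Adora2a limit its precision.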
